A study of Mus musculus with 18 samples.

Results

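The effect of losing Vhl in the presence of a MEK inhibitor was taken from 6 of the 18 libraries of a study of oligodendrocyte progenitor cells (OPCs) of the mouse, dividing precursors of myelin-forming oligodendrocytes. The 6 libraries are 3 of control cells (CRISPR-Control) and 3 of Vhl cells (CRISPR-Vhl), all given 300 nM of AZD8330, which inhibits the kinases MEK1 and MEK2, for 14 hours. Another 6 libraries of the same experiment, 3 per genotype, received DMSO over the same time and serve as the comparison. All cells were derived from epiblast stem cells and grown with Fgf2 and Pdgfa, growth factors that signal through the same kinase cascade, so both genotypes were stimulated and inhibited at once. Which part of Vhl was edited, and whether the edited cells are 1 clone or several, was not stated in any source used here. Nothing in the labels shows separate cultures behind the 3 libraries of a group, and the p-values then cover no more than the scatter among these samples, which may be technical.

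VHL is the substrate-recognising subunit of a ubiquitin ligase that sends the alpha subunits of HIF, hypoxia-inducible factor, for degradation after prolyl hydroxylases have marked them in the presence of oxygen. Without VHL, HIF accumulates in normal oxygen and raises genes of glycolysis, glucose uptake, angiogenesis and mitophagy. MEK1 and MEK2 activate the kinases ERK1 and ERK2, which pass growth factor signals to genes of proliferation. In OPCs, signalling from growth factors sustains division, and leaving the cell cycle goes with the start of oligodendrocyte maturation, when myelin and lipid genes are raised.

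HIF binds DNA at a short core, ACGTG or GCGTG. The upstream sequences of 5 genes of glycolysis or of the hypoxia response that rose in the Vhl libraries are shown first because they hold this core. They are the 250 bases before the RefSeq start site (GRCm38.p6), written 5′ to 3′ on the strand of the gene, with each match on either strand in capitals, and CACGTG holds 1 match on each strand.
Bnip3: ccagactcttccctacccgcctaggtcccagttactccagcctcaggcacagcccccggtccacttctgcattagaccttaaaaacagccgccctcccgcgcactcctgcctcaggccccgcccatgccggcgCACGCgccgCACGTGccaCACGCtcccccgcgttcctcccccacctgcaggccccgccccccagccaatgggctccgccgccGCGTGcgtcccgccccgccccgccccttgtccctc
Pgam1: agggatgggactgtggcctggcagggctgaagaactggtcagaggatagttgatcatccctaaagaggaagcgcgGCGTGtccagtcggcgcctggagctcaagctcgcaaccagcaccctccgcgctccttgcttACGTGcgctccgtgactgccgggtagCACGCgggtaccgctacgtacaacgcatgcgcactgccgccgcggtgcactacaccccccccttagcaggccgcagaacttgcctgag
Fam162a: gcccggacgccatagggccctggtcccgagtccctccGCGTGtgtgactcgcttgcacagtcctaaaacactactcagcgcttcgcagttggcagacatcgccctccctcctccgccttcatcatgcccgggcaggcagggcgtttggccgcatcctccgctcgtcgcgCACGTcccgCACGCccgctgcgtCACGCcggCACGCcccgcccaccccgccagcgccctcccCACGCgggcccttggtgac
Higd1a: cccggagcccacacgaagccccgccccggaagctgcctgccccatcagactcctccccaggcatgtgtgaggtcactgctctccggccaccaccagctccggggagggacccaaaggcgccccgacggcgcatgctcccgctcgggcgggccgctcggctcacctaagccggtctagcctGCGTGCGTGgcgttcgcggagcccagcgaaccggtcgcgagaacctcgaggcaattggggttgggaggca
Gapdh: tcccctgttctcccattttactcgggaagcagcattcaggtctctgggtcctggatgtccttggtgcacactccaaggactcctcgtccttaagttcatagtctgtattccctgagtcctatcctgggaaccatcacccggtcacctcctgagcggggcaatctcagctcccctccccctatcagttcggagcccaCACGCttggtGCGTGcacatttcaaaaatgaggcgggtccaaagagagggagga
They lie at chr7:138909507-138909756 (minus strand) for Bnip3, chr19:41911621-41911870 (plus strand) for Pgam1, chr16:36071562-36071811 (minus strand) for Fam162a, chr9:121857797-121858046 (minus strand) for Higd1a and chr6:125165774-125166023 (minus strand) for Gapdh. Matches numbered 5 for Bnip3, 3 for Pgam1, 6 for Fam162a, 2 for Higd1a and 2 for Gapdh, counted on both strands. The core is short and common: 38.6% of all 32851 promoter entries hold it in these 250 bases, and so do 55.9% of the entries of tested genes, 57.5% of those of genes that rose at least 2-fold and 50.2% of those of genes that fell. Of the 46 members of the glycolysis and hypoxia lists that rose, 37 had an entry, and 32 of these held a match in at least 1 entry, beside 62.2% of the 9842 tested genes with an entry. A match describes the letters only and is not a measured binding site.

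The 6 AZD8330 libraries had between 13540103 and 15597201 estimated counts each, and replicates of a group correlated across genes at 0.974 to 0.979 (Pearson's r of log2 CPM) over the 12 libraries, with none standing apart. Levels are given in CPM (counts for each 1000000 of the TMM-scaled total) and log2 changes with their standard error (SE). A gene is said to have risen or fallen where the adjusted p of edgeR's quasi-likelihood test was under 0.05. Because RNA was taken from whole cultures, fewer cells of a type and less RNA per cell cannot be told apart. Subunits of 1 complex differed widely per length. In control cells in AZD8330 the helicase subunit Mcm2 was at 19.2 CPM per kilobase of its longest transcript and Mcm3 at 0.452. A row may not cover all the reads of its gene, which was not tested. Epas1, which encodes another HIF alpha subunit, was listed at 0 in every library.

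Of 13460 genes tested, 4033 (30.0%) differed between Vhl and control cells in AZD8330, of which 2149 (16.0%) were higher and 1884 (14.0%) lower in Vhl cells. At least 2-fold rises numbered 502 (3.73%) and at least 2-fold falls 218 (1.62%). The median log2 change of all tested genes was 0.01. The split is sensitive to scaling: rises made up 53.3% of calls with TMM, 43.7% with the RLE size factors and 42.7% without replicate A of the Vhl cells, so that small changes near 0 are the least certain. Genes were read in 31 lists, named for their pathway, and the share of members that rose or fell was set beside the shares of all genes given above.

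**Figure D1:**
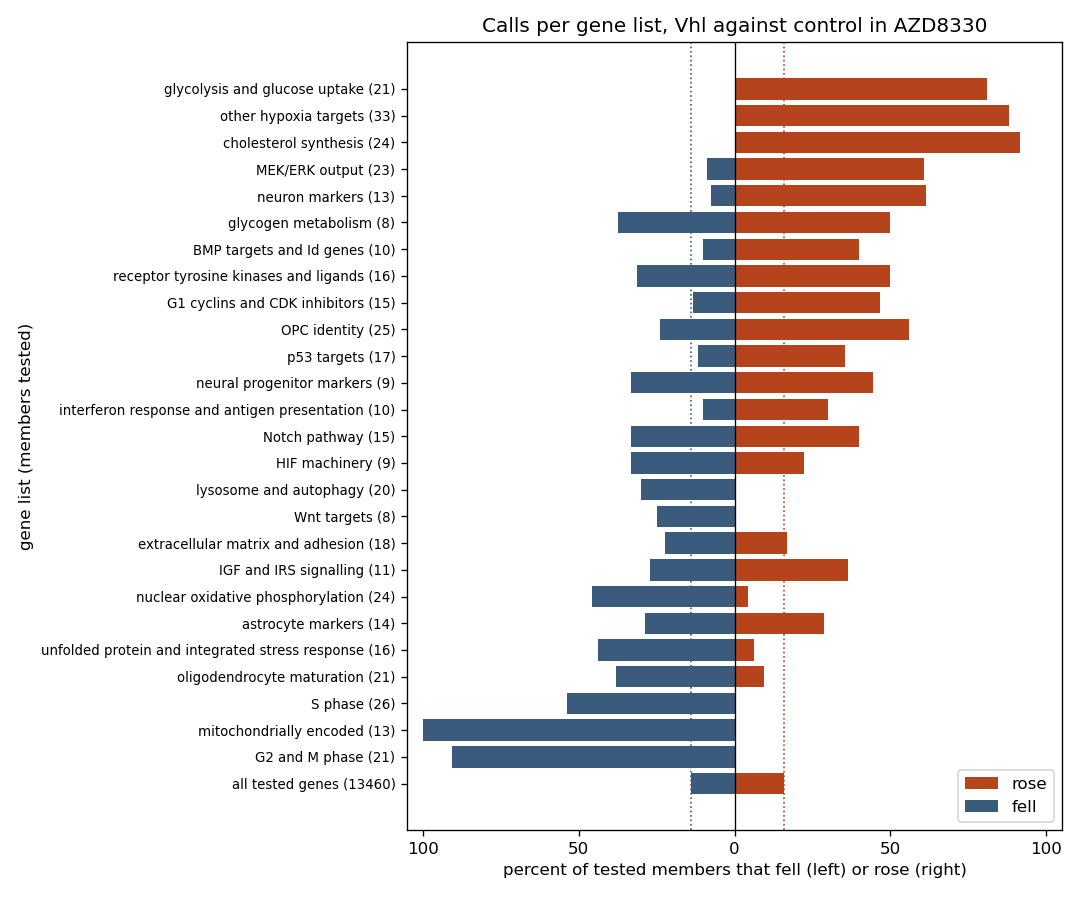
Percent of the tested members of each gene list that fell (left) or rose (right) in Vhl against control cells, both in AZD8330, for lists with at least 8 tested members, with the number tested in brackets. Dotted lines mark the shares of all 13460 tested genes (16.0% rose, 14.0% fell). Glycolysis, hypoxia and cholesterol synthesis lie farthest to the right, and mitochondrially encoded and G2 and M phase genes farthest to the left.

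Vhl mRNA itself was 139, 136 and 138 CPM in control libraries (always in the order A, B, C) and 103, 104 and 91.8 CPM in the Vhl libraries. All 3 Vhl libraries were below all 3 controls, a fall of log2 −0.46 ± 0.05 (edgeR adjusted p = 1.01e-05). A broken protein can come from an mRNA at its normal level, so this value checks the labels only in part. In GRCm38 (GENCODE M21) the gene occupies bases 113623959 to 113631633 of chromosome 6, plus strand. Hif1a, the gene of the oxygen-sensitive subunit, was also lower, at 417 ± 9.88 CPM (SD, n = 3) in control libraries and 300.1 ± 2.92 CPM in Vhl cells (log2 −0.48 ± 0.04, edgeR adjusted p = 1.62e-06). The prolyl hydroxylases, which are HIF targets as well as its regulators, moved the other way. Egln1 stood at 82, 82.9 and 80.2 CPM in control libraries and at 741, 769 and 744 CPM in Vhl cells, a rise of log2 3.20 ± 0.04 (edgeR adjusted p = 7.89e-15). Egln3 rose from 26.033 ± 0.622 to 171 ± 4.9963 CPM (log2 2.71 ± 0.06, edgeR adjusted p = 1.68e-12). Of the 9 tested genes of the HIF machinery, 2 rose and 3 fell.

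Glycolysis was raised at nearly every step. Of 21 tested genes of glucose uptake and glycolysis 17 rose and none fell at that threshold, with a median log2 change of 2.003 against 0.01 for all tested genes. Slc2a1, the main glucose transporter of many cells, was at 50.3, 50.6 and 52.6 CPM in control libraries and 301, 299 and 283 CPM in Vhl cells (log2 2.52 ± 0.04, edgeR adjusted p = 3.73e-14). The groups were far apart compared with their replicates. Pfkl, a subunit of phosphofructokinase, which commits sugar to glycolysis, went from 115, 102 and 100.3 to 1183, 1173 and 1085 CPM (log2 3.44 ± 0.05). Tpi1, triose phosphate isomerase, rose from 272 ± 2.01 to 1995 ± 104 CPM (log2 2.88 ± 0.04, edgeR adjusted p = 1.75e-14). Gapdh, often used as a reference gene, went from 2059, 2129 and 2040.2 CPM to 8608, 8895 and 8557 CPM (log2 2.06 ± 0.03, edgeR adjusted p = 3.69e-14). Pgam1, phosphoglycerate mutase, rose from 479 ± 4.22 to 2644 ± 64.8 CPM and Gpi1, the isomerase at the head of the pathway, from 496 ± 6.16 to 1987 ± 44.8 CPM. Ldha, which turns pyruvate into lactate, was at 2.85, 2.09 and 0.861 CPM in control libraries and 31.9, 46.8 and 40.1 CPM in Vhl cells (log2 4.33 ± 0.40). Its level in these rows is far below that of its neighbours in the pathway, and Pgk1 was lower still, at 0.0634, 0.261 and 0.502 CPM and 1.86, 3.47 and 2.77 CPM. Of the 31-base words of the transcripts, 37.1% in Pgam1, 28.1% in Gapdh and 54.7% in Pgk1 also occur in transcripts of another gene, so their levels depend on how the counting divided shared reads.

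Other hypoxia targets rose as widely, with 29 of 33 tested members higher, none lower and a median log2 change of 1.77. Bnip3, a receptor that sends mitochondria to autophagy, was at 37.1, 37.7 and 36.6 CPM in control libraries and 963, 965 and 906 CPM in Vhl cells (log2 4.67 ± 0.05, edgeR adjusted p = 7.89e-15), 25.4 times the control level. Its transcripts share 57% of their 31-base words with another gene. Vegfa, the ligand that drives growth of blood vessels, went from 5.51, 7.11 and 5.24 CPM to 132, 139 and 184 CPM, with the lowest Vhl library far above the highest control (log2 4.66 ± 0.16, edgeR adjusted p = 2.9e-10). Mif, a secreted cytokine, rose from 162 ± 4.39 to 1131 ± 9.46 CPM, with 60.5% of its words shared. Mitochondrial proteins of the hypoxia response rose too: Higd1a from 68.9 ± 3.59 to 859 ± 40.9 CPM and Fam162a from 33.2 ± 0.874 to 399 ± 25.8 CPM. Among genes of glycogen metabolism, where 4 of 8 tested rose and 3 fell, Gbe1, the branching enzyme, changed most, from 25.1, 26.8 and 24.5 to 307, 330.4 and 304 CPM (log2 3.62 ± 0.05, edgeR adjusted p = 2.66e-14). Ddit4, an inhibitor of the growth kinase complex mTORC1, rose less, from 379.6, 376 and 312 to 566, 651 and 623 CPM (log2 0.78 ± 0.08). Its control level was already high in the inhibitor, against 95.3, 88.9 and 105 CPM in control cells in DMSO.

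**Figure D2:**
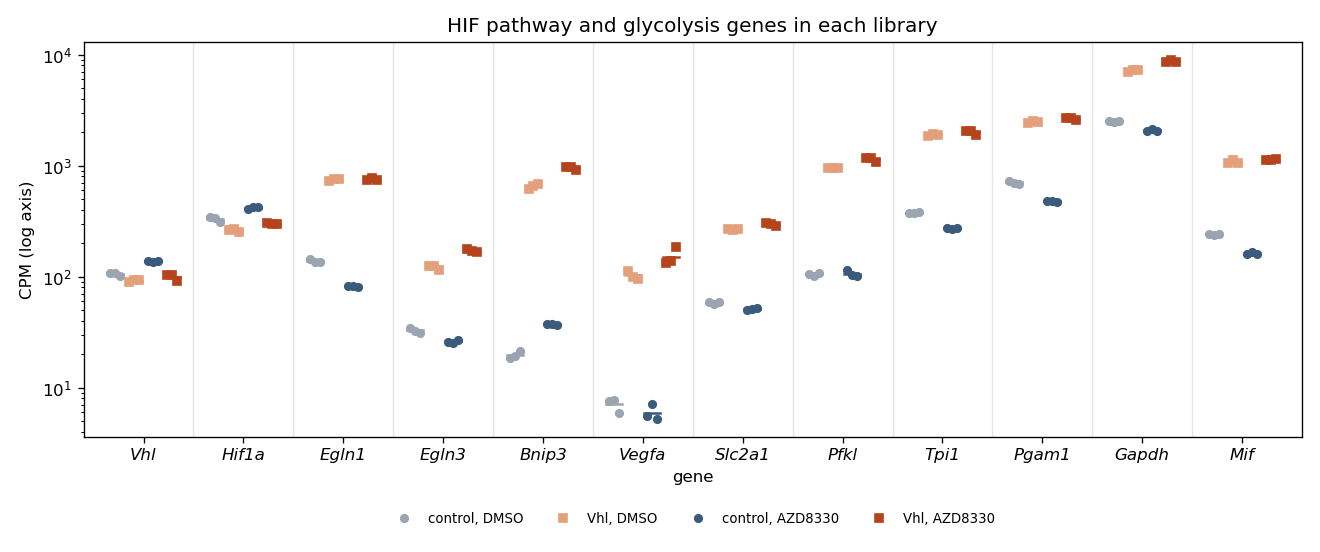
CPM of 12 genes of the HIF pathway and glycolysis in each of the 12 libraries, on a log axis, with points for libraries and short lines for the means of the 4 groups (circles control, squares Vhl, pale DMSO, dark AZD8330). Egln1, Egln3, Bnip3, Vegfa and the glycolysis genes are separated by genotype in both treatments, while Vhl and Hif1a are lower in the Vhl libraries.

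Several of the largest rises started from near 0. Dlx3, a homeobox transcription factor, had 2 counts over the 3 control libraries and 802 over the 3 Vhl libraries, a ratio of 415 after scaling to library totals (exact 95% interval 114.5 to 3433, counting error only). Mgarp, a mitochondrial protein, had no count in any control library and 229 in the Vhl libraries, at least 79.0-fold higher against a floor of 3 counts over the group. Loxl2, a lysyl oxidase that cross-links collagen, was at 0, 0 and 0.645 CPM in control libraries and 74.2, 62.007 and 71.3 CPM in Vhl cells. Ascl2, a basic helix-loop-helix transcription factor, was at 0, 0.13 and 0.502 CPM and 4.97, 7.26 and 5.82 CPM. In all 4 genes every Vhl library stood above every control library, as in 22.3% of all tested genes. The largest rises were named only among genes without overlap, so this is no added support for these 4. The fitted log2 changes of such genes depend on a handful of control counts: that of Dlx3 was 8.44 with all libraries and 11.05 without replicate A of the controls, that of Loxl2 8.37 and 12.97 without replicate C, and that of Ascl2 4.84 and 6.37 without replicate C. Rnf208, a RING finger protein, went from 1.52, 1.44 and 1.72 to 50.1, 56.6 and 56.3 CPM (log2 5.12 ± 0.11, edgeR adjusted p = 2.52e-12). Trpm2, a cation channel, went from 0.38, 0.391 and 0.789 to 17.7, 17.8 and 19.8 CPM (log2 5.14 ± 0.23). The control levels of Jakmip3 and Gipr were also low: Jakmip3 rose from 0.268 to 24.4 CPM, Gipr, the receptor of the gut hormone GIP, from 0.289 to 12.9 CPM, and the class I antigen-presenting gene H2-K1 rose from 2.21 to 57.2 CPM. Hecw2, a ubiquitin ligase, was uneven among Vhl libraries, at 10.8, 0.85 and 10.7 CPM against 0.127, 0.13 and 0 CPM in controls.

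Genes of cholesterol synthesis rose together in the inhibitor. Of 24 tested members 22 were higher in Vhl cells and none lower, with a median log2 change of 0.82, and the summed level of the list was between 3224 and 3660 CPM in the control libraries and between 5856 and 6258 CPM in the Vhl libraries. Lss, which closes the sterol rings, went from 124, 131 and 138 to 284, 332 and 311 CPM (log2 1.24 ± 0.06, edgeR adjusted p = 1.17e-08). Idi1, an isomerase of the isoprenoid steps, went from 140.3, 159 and 166 to 349, 367 and 335 CPM (log2 1.17 ± 0.06). In each of these genes the control and Vhl libraries did not overlap, as was the case for 22.3% of all tested genes in the upward direction. Hmgcs1, an early and abundant enzyme, rose from 1465 ± 108 to 2663 ± 129.7 CPM, Stard4, a sterol carrier, from 105 ± 5.61 to 217 ± 13.5 CPM, and Insig1, a sterol sensor that restrains the pathway, from 2.94 ± 0.687 to 7.52 ± 0.384 CPM. Srebf2, which encodes the transcription factor that drives these genes, changed by a smaller amount, from 589, 605 and 620.01 to 690.3, 716 and 729 CPM (log2 0.24 ± 0.03, edgeR adjusted p = 0.00017). Hsd17b7, with 2.41, 0.848 and 1.22 CPM in control libraries and 2.48, 1.24 and 2.11 CPM in Vhl cells, and Ebp, with 1.52, 3.65 and 2.80 and 0.207, 5.56 and 2.62 CPM, were the members that did not pass. Of 15 risen members with a RefSeq promoter entry, 10 held the HIF core in the 250 upstream bases of at least 1 entry, beside 62.2% of the tested genes with an entry.

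In DMSO the same genes did not rise with Vhl loss. There 13 of the 24 cholesterol genes were lower in Vhl cells and none higher, beside 18.5% and 13.8% of all genes, with a median log2 change of −0.25. The split of all calls in DMSO turns with scaling, from 42.6% higher with TMM to 56.6% higher with library totals, where 11 of the cholesterol genes were lower and none higher. The DMSO and AZD8330 comparisons share no library, and the difference between the 2 Vhl effects was tested as an interaction in 1 fit. It was called upward for 21 of the 24 genes and downward for none, beside 7.81% of all genes called upward and 4.96% downward. Idi1 in DMSO was at 353, 343 and 325 CPM in control libraries and 259, 258 and 246 CPM in Vhl cells (log2 −0.42 ± 0.06), and the difference between the effects was log2 1.59 ± 0.08 (edgeR adjusted p = 3.7e-07). Lss in DMSO was at 242, 268 and 250.2 CPM in control libraries and 213, 225 and 206 CPM in Vhl cells (log2 −0.24 ± 0.06), with a difference between the effects of log2 1.48 ± 0.09 (edgeR adjusted p = 1.33e-06). For Insig1 the difference was log2 1.95 ± 0.31 (edgeR adjusted p = 0.00135). Read across the 4 groups, control cells in the inhibitor were the low group for Idi1, with a mean of 155 CPM there and 350.2, 340.1 and 254 CPM in the Vhl AZD8330, control DMSO and Vhl DMSO groups. The means of Lss in the same order were 131, 309, 254 and 215 CPM.

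**Figure D3:**
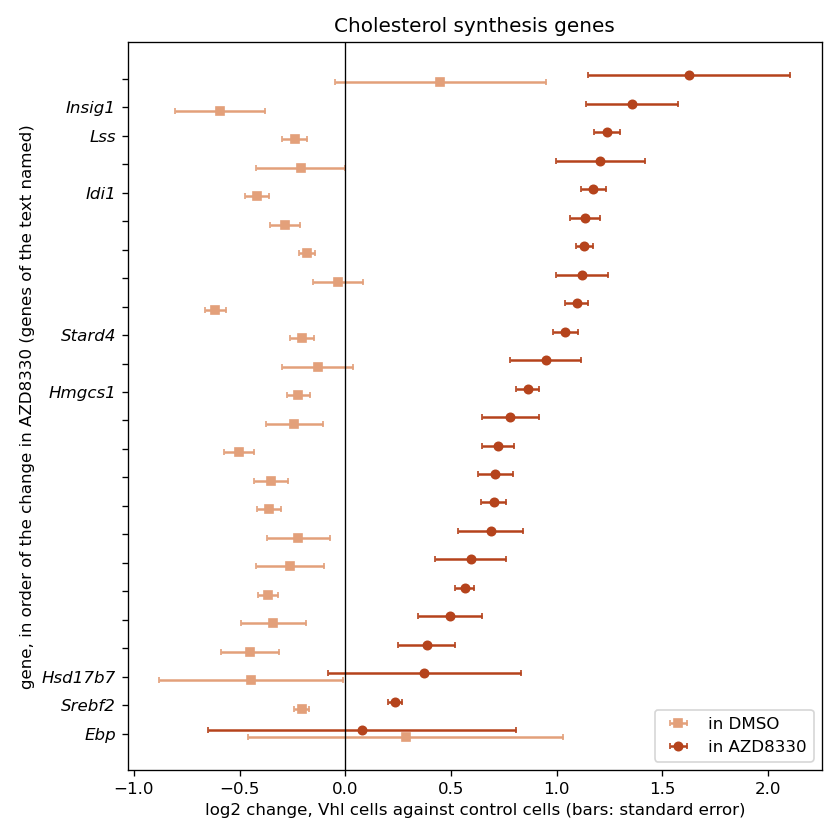
Log2 change between Vhl and control cells of the 24 tested cholesterol genes in DMSO (pale squares) and in AZD8330 (dark circles), with bars of 1 SE, in the order of the change in AZD8330 and with the names of the genes described in the text. In AZD8330 22 genes rose, and in DMSO 13 fell and none rose.

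Fatty acid genes moved in part with them. In a list added after the cholesterol result was seen, 6 of 15 tested genes of fatty acid synthesis rose in the inhibitor and 3 fell. Of all genes, 16.0% rose and 14.0% fell. In DMSO 10 of the 15 fell and 1 rose, beside 18.5% and 13.8% of all genes. The difference between the effects was called upward for 5 and downward for none, beside 7.81% and 4.96%. In the inhibitor Fasn, the fatty acid synthase, was at 719.9, 678 and 682 CPM in control libraries and 1021, 1023 and 1051 CPM in Vhl cells (log2 0.57 ± 0.04, edgeR adjusted p = 1.65e-07). In DMSO it was lower in Vhl cells, and the difference between the effects was log2 1.02 ± 0.05 (edgeR adjusted p = 4.27e-07). Scd1, a desaturase, rose from 741 ± 19.9 to 1076 ± 36.7 CPM and the elongase Elovl6 from 132 ± 4.03 to 204 ± 5.002 CPM. Srebf1, the transcription factor that drives lipid synthesis, fell instead, from 541, 537 and 554 to 380.4, 367 and 375 CPM (log2 −0.54 ± 0.03, edgeR adjusted p = 3.46e-08). Of 10 tested genes of sterol export and transport, also listed after the cholesterol result was seen, 4 fell and 2 rose. Of all genes, 14.0% fell and 16.0% rose. The median log2 change of the list was −0.06. In DMSO 5 of the 10 fell and 3 rose, beside 18.5% and 13.8% of all genes, with a median of −0.07. In the inhibitor Abca1, the pump that loads cholesterol onto lipoproteins, went from 347, 340.2 and 338 to 121, 117 and 112 CPM (log2 −1.55 ± 0.05, edgeR adjusted p = 1.36e-10). That was a larger fall than in DMSO, where Abca1 was at 29.8, 31.7 and 30.1 CPM in control libraries and 19.3, 23.3 and 21.953 CPM in Vhl cells, with a difference between the effects of log2 −1.05 ± 0.08 (edgeR adjusted p = 6.34e-06). Apoe, the lipoprotein component, fell from 572, 567 and 601 to 239, 292 and 289 CPM (log2 −1.08 ± 0.09). Npc1, which releases cholesterol from lysosomes, fell from 351 ± 6.05 to 262 ± 4.47 CPM, while Soat1, which esterifies cholesterol for storage, rose from 159.9 ± 8.40 to 276 ± 13.1 CPM.

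Across all genes the Vhl effect was shared in part between treatments. Of the 4033 genes called in AZD8330, 60.5% were also called in DMSO, which is 56.2% of the 4343 genes (32.3%) called there, with 2241 in the same direction and 200 in opposite directions. Across genes, which are not independent replicates, the log2 changes correlated with r = 0.577 (Pearson) and rho = 0.484 (Spearman). The difference between the effects was called for 1718 genes (12.8%), with 1051 higher and 667 lower in AZD8330. That direction depends on scaling: the upward share of these calls was 61.2% with TMM, 44.0% with library totals alone and 37.6% among genes of at least 5 CPM. The number of upward calls was 465 without replicate B of the AZD8330 controls and 484 without replicate A of the AZD8330 Vhl cells. Of the 1718 called differences, 910 had estimated Vhl effects of opposite sign in the 2 treatments, whether or not each effect was called. Among the 720 genes that changed at least 2-fold in AZD8330, 212 had a called difference. The HIF targets were raised in both treatments and somewhat more in the inhibitor for several: the difference was log2 0.76 ± 0.05 for Egln1 (edgeR adjusted p = 1.68e-06) and log2 0.83 ± 0.08 for Egln3. For Bnip3 it was log2 −0.37 ± 0.08 (edgeR adjusted p = 0.00717), a smaller rise in the inhibitor from a higher control level, and for Ddit4 log2 −0.70 ± 0.11. In the glycolysis list 8 of 21 differences were called upward and 1 downward, and in the hypoxia list 9 and 4 of 33. Of all genes, 7.81% were called upward and 4.96% downward. The median difference was log2 0.44 for glycolysis and 0.09 for hypoxia, where 18 differences were positive and 15 negative.

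**Figure D4:**
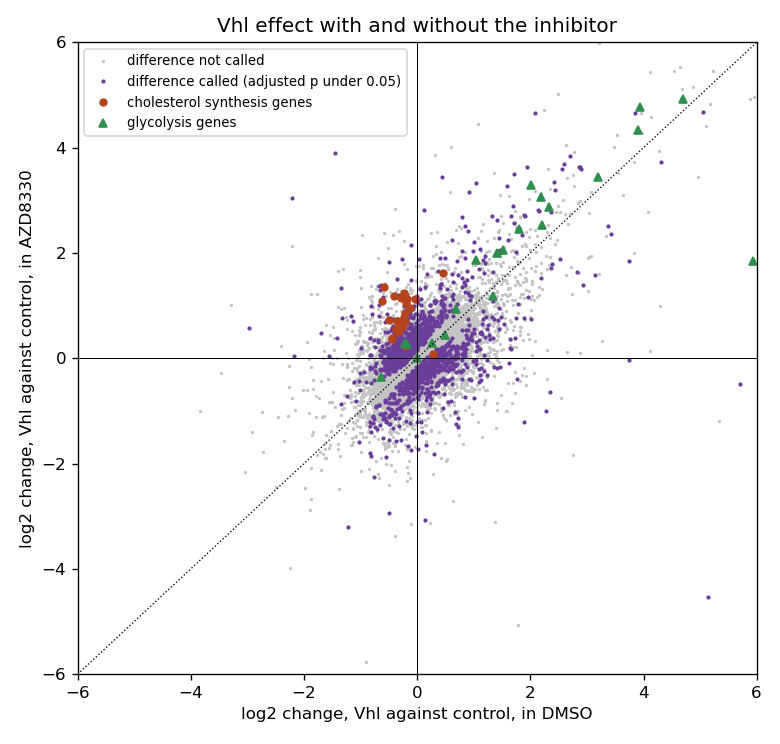
Log2 change between Vhl and control cells in DMSO (x axis) and in AZD8330 (y axis) for the tested genes, with the dotted line at equal changes and 19 genes beyond the drawn range of 6 left out. Purple points have a called difference between the treatments. Most glycolysis genes (triangles) lie at the upper right, and 4 of the 21 lie below 0 on the x axis. Cholesterol genes (circles) lie above 0 on the y axis and mostly below 0 on the x axis.

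The oligodendrocyte lineage genes did not move as 1 group. Of 25 genes of OPC identity 14 rose and 6 fell, with a median log2 change of 0.17. Sox10, the transcription factor that directs the lineage, was among the falls, at 99.9, 96.9 and 95.027 CPM in control libraries and 30.964, 34.7 and 27.2 CPM in Vhl cells (log2 −1.65 ± 0.10, edgeR adjusted p = 4.47e-08). The highest Vhl library was far below the lowest control library. In GRCm38 the gene occupies bases 79154908 to 79165240 of chromosome 15, minus strand. No difference in this fall between treatments was detected: in DMSO Sox10 was at 47.8, 55.3 and 50.5 CPM in control libraries and 20.2, 17.4 and 15.5 CPM in Vhl cells, and the difference between the effects was log2 −0.12 ± 0.14 (edgeR adjusted p = 0.669). Pcdh15, a protocadherin of OPCs, rose from 35.994, 32.6 and 39.015 to 102, 99.2 and 112 CPM (log2 1.54 ± 0.07, edgeR adjusted p = 4.94e-09). Pdgfra, the receptor of one of the growth factors in the medium, rose from 89.2, 85.3 and 79.2 to 134, 129.97 and 162 CPM (log2 0.74 ± 0.11). The auxiliary subunit Cacng4 rose from 94.2 ± 3.87 to 192 ± 4.21 CPM and the secreted protein C1ql1 from 47.5 ± 3.51 to 93.1 ± 1.37 CPM. Olig2 changed little, from 1134 ± 9.17 to 1309 ± 30.039 CPM (log2 0.21 ± 0.03), and Olig1, at 2859 ± 38.3 and 3035 ± 69.6 CPM, did not pass.

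Maturation genes were lower more often than higher. Of 21 tested members 8 fell, 2 rose and 11 did not pass, with a median log2 change of −0.30 and a summed level between 2187 and 2210 CPM in the control libraries and between 1927 and 1990 CPM in the Vhl libraries. Gjc3, a connexin of oligodendrocytes, went from 199.9, 199 and 199 to 116, 106 and 105 CPM (log2 −0.87 ± 0.06, edgeR adjusted p = 2.66e-07). Zfp488, a transcription factor that promotes the lineage, went from 17.1, 17.8 and 16.8 to 8.21, 8.31 and 8.95 CPM (log2 −1.02 ± 0.17, edgeR adjusted p = 0.000557). In DMSO it was low in both genotypes, at 4.89, 5.28 and 6.64 and 6.37, 7.84 and 4.75 CPM, and the difference between the effects was log2 −1.20 ± 0.25 (edgeR adjusted p = 0.00747). Smaller falls were measured for Sirt2, from 229.7 ± 4.27 to 191 ± 8.45 CPM, and for Bcas1, a marker of newly formed oligodendrocytes, from 152 ± 5.36 to 129 ± 6.67 CPM. The fall of Cnp, a myelin enzyme, was the least certain (log2 −0.12 ± 0.04, edgeR adjusted p = 0.0377), and its adjusted p was 0.0629 and 0.0827 without replicates B and C of the controls and 0.0517 and 0.149 without replicates B and C of the Vhl cells. Nkx6-2 rose from 23.6 ± 2.67 to 41.3 ± 2.96 CPM and the tight junction gene Cldn11 from 1.62 ± 0.491 to 3.80 ± 0.488 CPM. Gpr17, a receptor of the committed precursor stage, was at 514, 507 and 504 CPM in control libraries and 542, 517 and 519 CPM in Vhl cells and did not pass (log2 0.05 ± 0.04, edgeR adjusted p = 0.345). In DMSO it was at 55.5, 57.4 and 55.033 and 58.4, 63.2 and 56.9 CPM. Myrf, the master regulator of myelin genes, had 2.66, 4.37 and 5.95 CPM in control libraries and 0.965, 1.44 and 2.48 CPM in Vhl cells (log2 −1.41 ± 0.55, edgeR adjusted p = 0.0753), and Mbp had 8.68, 10.4 and 5.88 and 4.41, 3.47 and 5.53 CPM (log2 −0.90 ± 0.38, edgeR adjusted p = 0.0947), so neither passed at these low levels.

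**Figure D5:**
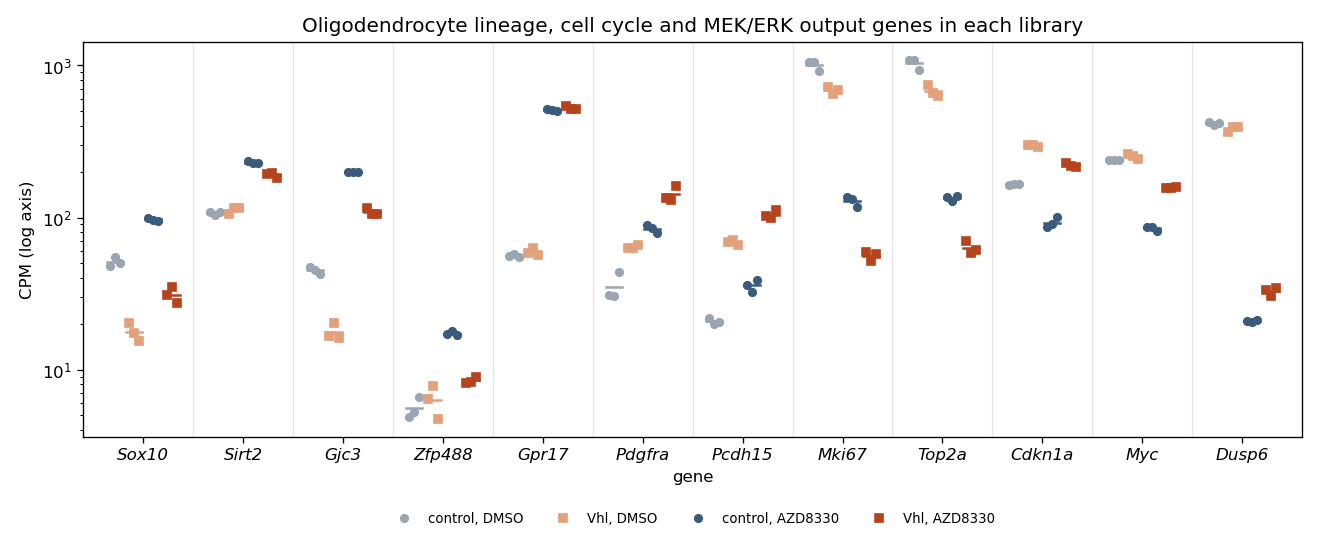
CPM of 12 genes of the oligodendrocyte lineage, the cell cycle and MEK/ERK output in each library, on a log axis, with the same symbols as in the plot of HIF pathway genes. Sox10 is lower in Vhl cells in both treatments, while the Gpr17 points are set apart by treatment.

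Genes that report MEK/ERK activity were often higher in Vhl than in control cells in the inhibitor, at levels that for several stayed far below those in DMSO. Of 23 tested members 14 rose and 2 fell, with a median log2 change of 0.51. In DMSO 10 of the 23 rose with Vhl loss and 1 fell, beside 13.8% and 18.5% of all genes, with a median of 0.20. The difference between the effects was called upward for 6 members and downward for 2, beside 7.81% and 4.96% of all genes. Dusp6, a phosphatase induced by ERK, was at 20.9, 20.5 and 21.2 CPM in control libraries and 33.2, 30.4 and 34.6 CPM in Vhl cells (log2 0.65 ± 0.06, edgeR adjusted p = 2.8e-06). Both are far below the levels in DMSO, 423, 405 and 417 CPM in control libraries and 365, 391 and 395 CPM in Vhl cells, where the genotypes did not pass as different. The difference between the effects was log2 0.76 ± 0.07 (edgeR adjusted p = 2.73e-05). Spry1, a feedback inhibitor, went from 26.6, 26.1 and 26.034 to 39.2, 40.3 and 41.6 CPM (log2 0.62 ± 0.04), with a difference between the effects of log2 0.57 ± 0.05 (edgeR adjusted p = 2.65e-05). The ETS factor Etv4 rose from 15.9 ± 2.11 to 24.7 ± 1.45 CPM and Spry4 from 16.3 ± 2.34 to 21.975 ± 2.12 CPM. Myc, the growth regulator, was at 86.9, 86.8 and 81.2 CPM in control libraries and 157, 156 and 159.6 CPM in Vhl cells (log2 0.89 ± 0.04, edgeR adjusted p = 1.64e-09), and the difference from its effect in DMSO was log2 0.81 ± 0.05 (edgeR adjusted p = 1.47e-06). Ccnd1, cyclin D1, rose from 153 ± 3.17 to 237 ± 5.12 CPM, against 693 CPM in DMSO controls. Dusp7 and Il17rd fell, with log2 changes of −0.75 and −0.30. The immediate early genes Egr1, at 5.45, 5.02 and 5.67 and 5.93, 4.25 and 6.33 CPM, and Fos, at 10.963, 13.4 and 13.2 and 13.7, 15.9 and 15.9 CPM, did not pass.

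Genes of S phase and of G2 and M phase were lower in Vhl cells, while G1 cyclins and inhibitors of cyclin-dependent kinases were more often higher. None of 21 tested G2 and M phase genes rose and 19 fell, with a median log2 change of −1.03, and 14 of 26 S phase genes fell with none rising and a median of −0.46. In DMSO 17 of the 21 and 12 of the 26 fell with Vhl loss and none rose, with medians of −0.55 and −0.38. Of all genes, 18.5% fell and 13.8% rose there. The difference between the effects was called downward for 7 of the 21 and 3 of the 26, and upward for none. Shares of all genes were 4.96% downward and 7.81% upward. The median difference was log2 −0.49 for G2 and M phase and −0.05 for S phase. Mki67, the proliferation marker, was at 137, 132 and 117 CPM in control libraries and 59.7, 51.4 and 57.7 CPM in Vhl cells (log2 −1.19 ± 0.08, edgeR adjusted p = 2.09e-07). It was at 1051, 1062 and 916 CPM in DMSO controls, and the fall with Vhl loss was larger in the inhibitor, with a difference of log2 −0.64 ± 0.11 (edgeR adjusted p = 0.00203). Top2a, a topoisomerase of dividing cells, went from 137, 129 and 139 to 70.2, 58.5 and 60.9 CPM (log2 −1.10 ± 0.09). The cyclin Ccna2 fell from 40.6 ± 2.64 to 20.8 ± 1.49 CPM and the checkpoint kinase Bub1b from 19.4 ± 1.80 to 7.83 ± 0.946 CPM. Of the replication helicase, Mcm5 fell from 53.8 ± 1.28 to 30.8 ± 2.05 CPM and Mcm2 from 67.2 ± 0.753 to 49.3 ± 2.41 CPM. The rows of Mcm6, from 2.84 ± 0.603 to 0.854 ± 0.119 CPM, and Mcm3, from 0.634, 0.718 and 3.30 to 0.069, 0.589 and 0.51 CPM, were very low. The fall of Mcm3 rested on 1 control library and did not pass with limma at either pseudocount (adjusted p = 0.0958 and 0.0595): its log2 change was −1.95 (edgeR adjusted p = 0.0455) and −0.78 (edgeR adjusted p = 0.335) without replicate C of the controls, and its adjusted p was 0.119, 0.0559 and 0.0772 without replicates A, B and C of the Vhl cells. The number of S phase falls was 9 without replicate C of the Vhl cells. Of 15 tested G1 cyclins and inhibitors of cyclin-dependent kinases 7 rose, 2 fell and 6 did not pass, with a median log2 change of 0.19. The counts were the same in DMSO, where 7 rose and 2 fell, with a median of 0.26. In the inhibitor Cdkn1a, which encodes p21, rose from 86.1, 91.2 and 100.1 to 229, 219 and 215 CPM (log2 1.26 ± 0.05, edgeR adjusted p = 9.52e-10) and Cdkn2b from 10.7 ± 0.673 to 25.3 ± 1.03 CPM. Ccnd3 rose from 129 ± 3.21 to 222 ± 3.97 CPM.

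All 13 mitochondrially encoded genes fell, with a median log2 change of −0.94, and they took between 4.99% and 5.25% of counts in the control libraries and between 2.56% and 2.78% in the Vhl libraries. In DMSO 11 of the 13 fell with Vhl loss and none rose, beside 18.5% and 13.8% of all genes, with a median of −0.67. The share of counts of the 13 genes there was 4.51% to 5.22% in control libraries and 3.18% to 3.29% in Vhl libraries. The difference between the effects was called downward for 6 of the 13 and upward for none, beside 4.96% and 7.81% of all genes. The share of mitochondrial reads is also used as a sign of RNA quality, and its part in other results was not tested. mt-Co1, a subunit of cytochrome oxidase, was at 14614, 15001 and 14963 CPM in control libraries and 7686, 8016 and 7896 CPM in Vhl cells (log2 −0.92 ± 0.04, edgeR adjusted p = 1.37e-09), with 63.9% of its words shared with another gene. mt-Nd5, a subunit of complex I, fell from 4454 ± 116 to 2087 ± 82.1 CPM. Nuclear-encoded respiratory chain genes changed less: 11 of 24 fell, 1 rose and the median was −0.13. In DMSO 12 of the 24 fell and 1 rose, with a median of −0.24. In the inhibitor Ndufa4 fell from 242, 258 and 259 to 136, 134 and 134 CPM (log2 −0.91 ± 0.04, edgeR adjusted p = 1.5e-09), and Atp5b, of the ATP synthase, from 1951 ± 28.3 to 1519.5 ± 62.5 CPM.

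Signalling pathways were mixed. Of 15 tested Notch pathway genes 6 rose and 5 fell. The ligand Dll4 fell from 14.4, 12.5 and 13.6 to 4.21, 3.60 and 4.22 CPM (log2 −1.75 ± 0.17, edgeR adjusted p = 4.22e-06). In DMSO it was at 5.65, 6.62 and 7.71 and 5.49, 5.9959 and 7.02 CPM, and the difference between the effects was log2 −1.64 ± 0.23 (edgeR adjusted p = 0.000671). The ligand Jag1 fell from 71.5 ± 3.07 to 50.2 ± 2.37 CPM, while Jag2 rose from 1.71 ± 0.165 to 8.39 ± 1.38 CPM. The target Hes5, a repressor of differentiation, rose from 142, 125 and 128 to 175, 166 and 174 CPM (log2 0.38 ± 0.06), a smaller rise than in DMSO, where it went from 14.9, 12.972 and 15.6 to 47.7, 45.9 and 49.9 CPM (log2 −1.34 ± 0.10 for the difference, edgeR adjusted p = 3.72e-06). Of 10 tested BMP targets and Id genes 4 rose and 1 fell. Id2, an inhibitor of differentiation factors, rose from 86.9, 78.6 and 85.4 to 123, 120.4 and 125 CPM, again less than in DMSO (difference log2 −0.88 ± 0.08, edgeR adjusted p = 1.64e-05). Of 16 receptor tyrosine kinases and ligands 8 rose and 5 fell: Kit rose from 110.3 ± 4.10 to 195 ± 8.58 CPM, and Erbb3, a neuregulin receptor, fell from 15.8, 15.5 and 17.8 to 3.9998, 3.66 and 3.86 CPM (log2 −2.09 ± 0.20, edgeR adjusted p = 5.5e-06). Of 11 genes of IGF and IRS signalling 4 rose and 3 fell, with Igfbp5, a secreted binding protein of insulin-like growth factors, at 1732, 1684 and 1708 CPM in control libraries and 3357, 3297 and 3278 CPM in Vhl cells. In 18 matrix and adhesion genes, of which 3 rose and 4 fell, Tnc, tenascin C, rose from 112, 113 and 118 to 238, 220.03 and 224 CPM (log2 0.99 ± 0.04, edgeR adjusted p = 8.95e-10). Tnc stood at 739.5, 779 and 755 and 717, 726 and 748 CPM in DMSO, so the difference between the effects was log2 1.04 ± 0.05 (edgeR adjusted p = 3.29e-07). Fn1, fibronectin, rose from 125 ± 13.2 to 222 ± 13.5 CPM, and the collagen gene Col9a3 fell from 50.5 ± 1.41 to 16.7 ± 0.948 CPM. Of 8 tested Wnt targets none rose and 2 fell.

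Among stress and housekeeping lists, 7 of 16 tested genes of the unfolded protein and integrated stress response fell and 1 rose. In DMSO 7 of the 16 also fell and 1 rose. The falls in the inhibitor included chaperones of the endoplasmic reticulum such as Pdia4, from 396 ± 11.5 to 231 ± 9.89 CPM, and Calr, from 1353 ± 45.3 to 831 ± 32.8 CPM. Of 20 lysosome and autophagy genes 6 fell and none rose. Of 17 genes on the p53 list 6 rose and 2 fell: Phlda3 rose from 24.1 ± 0.207 to 43.3 ± 3.47 CPM and Sesn1 fell from 66.7 ± 2.67 to 47.1 ± 1.38 CPM. The list includes Trp53 itself, whose row was at 10.5, 5.81 and 11.2 CPM in control libraries and 69.1, 60.045 and 64.3 CPM in Vhl cells (log2 2.82 ± 0.24, edgeR adjusted p = 1.61e-06), beside 67.5, 121 and 81.8 and 93.6, 109 and 92.3 CPM in DMSO. Of 10 tested interferon and antigen presentation genes 3 rose and 1 fell.

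The largest falls included 2 genes of the OPC identity list. Luzp2 was at 26.9, 27.5 and 27.8 CPM in control libraries and 5.03, 4.84 and 5.10 CPM in Vhl cells (log2 −2.45 ± 0.12, edgeR adjusted p = 1.2e-08). Neu4, a sialidase on the same list, fell from 15.019, 18.982 and 18.4 to 5.17, 4.06 and 5.24 CPM. Aldh1a1, which makes retinoic acid, fell from 95.9, 99.7 and 105 to 27.4, 26.9 and 26.2 CPM (log2 −1.90 ± 0.08, edgeR adjusted p = 2.1e-09). Tmem132b, a membrane protein, fell from 129, 124 and 107 to 25.8, 26.8 and 22.9 CPM (log2 −2.26 ± 0.11), and the melanocortin receptor Mc5r from 33.5, 30.3 and 33.3 to 9.38, 9.35 and 8.01 CPM. These last genes were much higher in AZD8330 controls than in DMSO controls, where Tmem132b was at 10.028, 12.9 and 10.2 CPM and Mc5r at 3.17, 2.54 and 2.71 CPM. Capn6 fell from 17.008 ± 0.717 to 2.31 ± 0.437 CPM, the polycystin channel Pkd2l1 from 40.3 ± 1.74 to 10.9 ± 1.98 CPM, the GTPase Gem from 5.18 ± 0.456 to 1.06 ± 0.438 CPM, Cacng5 from 5.13 ± 0.962 to 1.19 ± 0.109 CPM, and Gatm, an enzyme of creatine synthesis, from 9.41 ± 1.49 to 2.62 ± 0.66 CPM. The chaperonin subunit Cct8 was at 38.6, 28.8 and 34.9 CPM in control libraries and 11.7, 2.09 and 2.18 CPM in Vhl cells (log2 −2.68 ± 0.74, edgeR adjusted p = 0.0151). Its adjusted p was 0.0594 without replicate B and 0.0596 without replicate C of the Vhl cells, and its log2 change was −4.04 without their replicate A. In an added list of 8 subunits of this chaperonin 2 rose and 3 fell, with a median log2 change of 0.01. Their rows ranged from 3.20 to 393.6 CPM per kilobase in control cells, with Cct8 at 14.2. The Cct8 row may not cover all the reads of the gene, which was not tested.

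Markers of other cell types were read beside these results. Of 13 tested neuron markers 8 rose and 1 fell, and their summed level was between 2164 and 2175 CPM in the control libraries and between 2573 and 2601 CPM in the Vhl libraries. Dcx, of young neurons and also present in OPCs, went from 261, 259 and 268 to 417, 403 and 395 CPM (log2 0.62 ± 0.04, edgeR adjusted p = 3.46e-08), less than in DMSO (difference log2 −0.63 ± 0.05, edgeR adjusted p = 9.1e-06). Elavl3, an RNA-binding protein of neurons, went from 22.3 ± 0.618 to 67.3 ± 2.38 CPM. Of 14 tested astrocyte markers 4 rose and 4 fell, with sums between 3764 and 3887 CPM and between 3970 and 4031 CPM. Gfap, the filament of astrocytes, fell from 139, 124 and 129 to 109, 88.6 and 88.4 CPM, with 4.25, 3.54 and 4.57 CPM in DMSO controls. The water channel Aqp4 fell from 49.6, 46.6 and 47.5 to 34.5, 29.6 and 28.2 CPM (difference from DMSO log2 −1.01 ± 0.20, edgeR adjusted p = 0.00573) and Gja1, connexin 43, from 901 ± 20.7 to 417 ± 16.3 CPM, whereas Sox9 rose from 399.6 ± 12.6 to 672 ± 19.4 CPM. Of 9 tested neural progenitor markers 4 rose and 3 fell. None of the 10 microglia markers reached the level for testing, and their summed level was at most 1.58 CPM in any AZD8330 library. The 9 endothelial markers summed to between 6.46 and 7.89 CPM in control libraries and between 10.8 and 13.5 CPM in Vhl cells, of which Flt1, a receptor of Vegfa, went from 0, 0.522 and 0.43 to 6.48, 6.93 and 4.73 CPM. The 10 mesenchymal markers summed to between 23.9 and 26.8 CPM in control libraries and between 30.8 and 31.5 CPM in Vhl cells, with 1 of 4 tested members risen. The 9 pluripotency markers, read because the cells derive from epiblast stem cells, summed to between 22.8 and 27.7 CPM and between 39.1 and 44.99 CPM, with 1 of 4 tested members risen and 3 members at 0 in every AZD8330 library. That member was Klf4, a transcription factor with roles outside pluripotency too, at 15.6, 20.2 and 21.014 CPM in control libraries and 35.3, 34.1 and 38.7 CPM in Vhl cells (log2 0.93 ± 0.17, edgeR adjusted p = 0.00104). Of 5 tested Schwann and neural crest markers 1 rose and 3 fell, among them Erbb3. The part of these cell types in the other results was not tested.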

How the data were processed

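RNA-seq of 12 libraries was analysed, 3 for each of 4 groups. Per the submitters' processing notes, Salmon 0.14.1 and the mouse build mm10 were used, and the values the authors deposited are estimated counts per gene: totals differ between libraries, and 58.8% of values above 0 are whole within 0.001. How transcripts were combined into 54279 gene rows, and with which library kit and strand, was not stated in any source used here. Estimated counts were rounded, genes averaging 1 CPM or more kept, libraries scaled with TMM, and all 12 libraries fitted together with edgeR 4.0.16 (quasi-likelihood, R 4.3.3). Benjamini-Hochberg adjustment ran over all tested genes (threshold 0.05). The script was tested on simulated counts. The members and lists were chosen with earlier results of these data known. Named genes are the 12 largest rises and falls among called genes with no overlap of groups and at least 5 CPM in the higher group, the 6 largest differences between treatments each way, up to 4 members of each list by smallest p, and 30 fixed genes, each without unnamed gene models; some genes that this rule names are not reported here. Pfkl, Ldha, Pgk1, Ddit4, Bcas1, Cnp, Nkx6-2, Cldn11, C1ql1, Il17rd, Mcm3, Jag2, Gfap, Aqp4, the fatty acid and sterol transport genes, and Hmgcs1, Insig1, Srebf2, Stard4, Hsd17b7 and Ebp fall outside this rule and were chosen after their values were seen. Alternatives were RLE and library-total scaling, other filters, DESeq2 1.42.0, limma 3.58.1 on log2(CPM + 1) and log2(CPM + 0.1), a replicate block and left-out libraries. Positions are 1-based, from GENCODE M21. 26 rows named by a date were not reported. The 6 untreated libraries were not used. Figures used matplotlib 3.10.9.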

Additional observations from a re-analysis of the deposited data

Results flagged for a closer look

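The genes below had a Vhl effect that differed between AZD8330 and DMSO by the interaction test of edgeR (adjusted p under 0.05), as 12.8% of all tested genes did. Values are the effect in AZD8330 minus that in DMSO on the log2 scale. Among the 6 largest positive differences by rule, Trp53 had 2.69: its row was low in the 3 AZD8330 controls alone. Slc1a5, a glutamine transporter, had 2.04, with 5.83, 6.46 and 7.32 CPM in AZD8330 controls and 19.2, 17.5 and 13.8 CPM in Vhl cells against 14.7, 12.7 and 12.4 and 9.40, 7.70 and 7.9966 CPM in DMSO. Npas1 had 2.56, with 8.28, 5.82 and 6.70 CPM in AZD8330 Vhl cells and at most 1.51 CPM in any other library. Sertm1 had 2.28. Cyp3a13 had 3.55, or 6.32 without replicate A of the DMSO Vhl cells, the other two having no count. Prokr1 had 2.69, with an adjusted p of 0.0518 in edgeR's test without replicate C of the AZD8330 Vhl cells.

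Of the 6 largest negative differences, Wdr41 had −9.68. Its row was at 39.4, 0.261 and 0.43 CPM in AZD8330 controls and 0.796, 0.681 and 40.2 CPM in DMSO Vhl cells, and below 1 CPM in the other 6 libraries, so 1 library in each of those groups sets the value: it was −4.43 (edgeR adjusted p = 0.345) without replicate A of the AZD8330 controls and −5.46 (edgeR adjusted p = 0.223) without replicate C of the DMSO Vhl cells. Hk1, a hexokinase, had −4.08, with uneven AZD8330 controls at 4.06, 14.1 and 22.5 CPM, Vhl cells at 41.2, 54.2 and 49.9 CPM, and 0.508, 0.0669 and 0.714 and 15.5, 20.8 and 43.001 CPM in DMSO, and its adjusted p was 0.052 in edgeR's test without replicate B of the DMSO controls. With limma on log2(CPM + 1) the difference of Hk1 was −2.15 (adjusted p = 0.0528). Fbxo32, a ubiquitin ligase of muscle wasting, had −1.84, falling from 70.4, 72.2 and 70.6 to 35.3, 29.4 and 32.976 CPM in AZD8330 and rising from 6.03, 6.22 and 6.35 to 7.48, 11.3 and 11.7 CPM in DMSO. Fmnl1 had −2.99, Phyhd1 −2.02 and Vwa5b1 −1.999. Leaving out single libraries gave edgeR adjusted p from 0.00367 to 0.0682 for Fmnl1, from 0.0183 to 0.0749 for Phyhd1 and from 0.00552 to 0.135 for Vwa5b1. With limma the difference of Vwa5b1 was −0.11 (adjusted p = 0.847) on log2(CPM + 1) and −1.59 (adjusted p = 0.0931) on log2(CPM + 0.1). That of Wdr41 was −3.33 (adjusted p = 0.276) and −4.68 (adjusted p = 0.257) on these scales.

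Among genes chosen for the report, the differences were 1.59 for Idi1, 1.48 for Lss, 1.95 for Insig1 and 1.02 for Fasn, against −1.05 for Abca1. They were 0.76 for Egln1, 0.83 for Egln3, −0.37 for Bnip3 and −0.70 for Ddit4. Genes of growth signalling and the matrix had 0.76 (Dusp6), 0.81 (Myc), 0.57 (Spry1) and 1.04 (Tnc). Lower in AZD8330 than in DMSO were the effects on Mki67 (−0.64), Zfp488 (−1.20), Hes5 (−1.34), Id2 (−0.88), Dll4 (−1.64), Dcx (−0.63) and Aqp4 (−1.01).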

How the results depend on the processing

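The number of genes that changed with Vhl loss in AZD8330 lay between 3417 and 4119 under all alternatives, against 4033, and the number with a different effect in the 2 treatments between 1246 and 1813, against 1718. The split of the latter moved most. Upward differences numbered 683 with library totals, 654 at a mean of at least 5 CPM (downward 1087) and 465 to 977 with 1 library left out, against 1051. With a replicate block, letters A, B and C matched across groups, 3895 genes were called in AZD8330 (2071 higher, 1824 lower), 1552 differences (958 upward, 594 downward) and 4218 genes in DMSO. Deviations of same-letter AZD8330 libraries correlated at 0.00678, 0.0493 and −0.0341, so no deviation shared by letter was detected between them. Whether the samples were paired by design cannot be told from this, and DMSO libraries were not checked. The effect in AZD8330 was followed for 122 genes of the text, including those that did not pass. Of these, 114 kept direction and call, or lack of a call, in every alternative with a value. So did 27 of 33 differences between treatments, among them that of Sox10, which was not called. Directions reversed only for genes that did not pass: Egr1 at −0.0132 with RLE and −0.0138 with DESeq2 (−0.0815 to 0.189 with 1 library left out), Gpr17 (−0.0214 to 0.0618 with 1 library left out) and Ebp at −0.21 and −0.63 with limma (pseudocounts 1 and 0.1) and −0.18 with the block (−0.91 to 0.58 with 1 library left out). Myrf, which did not pass, was called by 5 alternatives: DESeq2 (adjusted p = 0.0399), limma on log2(CPM + 1) (0.0346), the block (0.0154), no filter (0.0225) and the 6 AZD8330 libraries alone (0.0357). Mbp, which did not pass either, was called by DESeq2 (adjusted p = 0.0498), with no filter (0.0329) and in the 6 AZD8330 libraries alone (0.0325). Cnp lost its call with no filter and in those 6 libraries (adjusted p = 0.0619 and 0.0657). With the block Mcm3 (−1.86, adjusted p = 0.0572) and the difference of Wdr41 (−8.54, adjusted p = 0.105) did not pass. The cause was not tested. DMSO alternatives were chosen after seeing the data. Where a group is left with 2 libraries, the spread is pooled over groups.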
